A study of Homo sapiens with 8 samples.

Results

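The mRNAs of the human proteasome were followed in osteosarcoma cells after depletion of CGGBP1, a protein that binds short CGG repeats. Genes were taken by their symbol: every listed row named PSMA, PSMB, PSMC, PSMD, PSME, PSMF or PSMG followed by a digit. This rule found 49 of the 18388 listed genes. Of these, 46 encode subunits, activators, an inhibitor or assembly chaperones of the proteasome, and all 46 passed the read filter that left 10138 tested genes. The other 3 rows are no subunits: PSMC3IP, a protein of meiotic recombination, was tested, while the antisense RNAs PSMB8-AS1 and PSMG3-AS1 had too few reads. The germ cell subunit PSMA8 and the thymus subunit PSMB11 were not analysed here.

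The proteasome is the protease that degrades proteins tagged with ubiquitin. Its barrel, the 20S core, is built of outer alpha rings and inner beta rings, and the catalytic sites lie on beta subunits. The 19S regulatory particle caps the barrel with a base of ATPases, which unfold the substrate, and a lid that holds the deubiquitinating subunit, while alternative activators of the PSME family can dock in its place. Subunit mRNAs are known to be made in concert, and when proteasome activity falls the factor NFE2L1, with a small MAF partner, binds antioxidant response elements in their promoters. In immune signalling, 3 inducible beta subunits replace the constitutive catalytic ones.

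All libraries came from U-2OS Tet-ON cells, an osteosarcoma line that expresses a tetracycline-regulated transactivator. Cells received 50 nM of control siRNA (siControl) or a pool of CGGBP1 siRNAs (siCGGBP1) for 72 h, and 75 µM 4-thiouridine (4sU) for the last 60 min, in 3 libraries per group. All libraries, the controls included, carry DMSO in their labels, whose dose and time are not given there. One further siControl library had no 4sU and another had 200 µM. The study asked how total and newly synthesized RNA change upon CGGBP1 depletion. SLAM-Seq converts incorporated 4sU so that it reads as a T-to-C change, and from these changes a new-to-total ratio was estimated for each gene. The 6 libraries compared held 10127519 to 14221516 reads. Libraries were made from the 3′ end of polyadenylated RNA, so a read stands for a transcript but levels of different genes are not ordered here. The study's statistics section speaks of biological replicates in general, but how these replicates were kept apart is not given in the sources used here, so p-values cover the spread between these libraries.

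CGGBP1 itself, on chromosome 3, was at 108, 94.2 and 77.2 normalized RPM (reads scaled to a common library size) in siControl replicates 1 to 3 and at 18.3, 10.1 and 31.4 in siCGGBP1. The groups did not overlap, with a log2 fold change of -2.22 ± 0.39 (SE, adjusted p = 0.0138). The call was lost without siControl replicate 1 (adjusted p = 0.0632) or siCGGBP1 replicate 1 (adjusted p = 0.0851). The mesenchymal and bone markers VIM, COL1A1, SPARC, CD44, FN1 and RUNX2 all had at least 102 reads in every library. Some of them differed between groups in raw reads, COL1A1 with 7089 to 9780 in siControl against 17402 to 28735 in siCGGBP1, SPARC with 6351 to 8450 against 14451 to 26694, and CD44 with 1484 to 1937 against 840 to 1288. Of the markers of other lineages, CDH1, CD3E and PECAM1 were at 0. EPCAM had 46 to 184 reads in the libraries at 75 µM, but 0 in the library without 4sU and 1 in that with 200 µM. At 75 µM the epithelial markers together had 50 to 94 reads in siControl and 79 to 184 in siCGGBP1, and the part of these markers in the results was not tested. Both libraries numbered 3 stood apart in the labelling estimate, which was exactly 0 for 56.9% and 58.5% of tested genes there, against 22.5% to 31.9% in the other 4 libraries.

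Proteasome mRNAs made up a smaller share of the reads upon CGGBP1 depletion. The 46 genes took 1.04%, 1.03% and 1.04% of all reads in siControl and 0.911%, 0.885% and 0.887% in siCGGBP1. The siControl libraries without 4sU and with 200 µM 4sU stood at 1.06% each, so all 5 control libraries lay above the 3 depleted ones. In bulk RNA, fewer cells that express a gene and less RNA per cell cannot be told apart. Of the 46 genes, 35 were lower and 11 higher in siCGGBP1, whereas over all tested genes 49.9% were lower and the median log2 fold change was 0.00.

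By subcomplex, all 17 genes of the 19S particle were lower, 14 of 17 genes of the 20S core were lower, all 4 activators were higher, and of the 7 assembly chaperones 3 were lower and 4 higher. The median log2 fold change was -0.45 for the 19S particle, -0.27 for the 20S core, 0.22 for the activators and 0.02 for the chaperones. Without both libraries numbered 3, 15 of 17, 12 of 17 and 2 of 7 genes of the 19S particle, core and chaperones were lower and 3 of 4 activators were higher, with medians of -0.43, -0.23, 0.02 and 0.12 in the order 19S, core, chaperones, activators. Leaving out any 1 library left 15 or more of the 19S genes lower and all 4 activators higher.

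No single proteasome gene passed the adjusted threshold of 0.05 in edgeR's quasi-likelihood test, which called 1.79% of all tested genes. The lowest adjusted p among the 46 was 0.110. At an unadjusted p under 0.05, 14 of 46 genes (30.4%) were lower and 2 (4.35%) were higher, beside 8.32% of all tested genes lower and 8.11% higher. In 14 of 46 every siCGGBP1 library lay below every siControl library, beside 12.1% of all tested genes, and PSME1 alone lay above in every library, where the share over all tested genes was likewise 12.1%. The Wald test of DESeq2, the test the study used, called 4 members lower (PSMC1, PSMC6, PSMD1 and PSMA3) and none higher, and it called 3.5% of all tested genes lower.

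**Figure D1:**
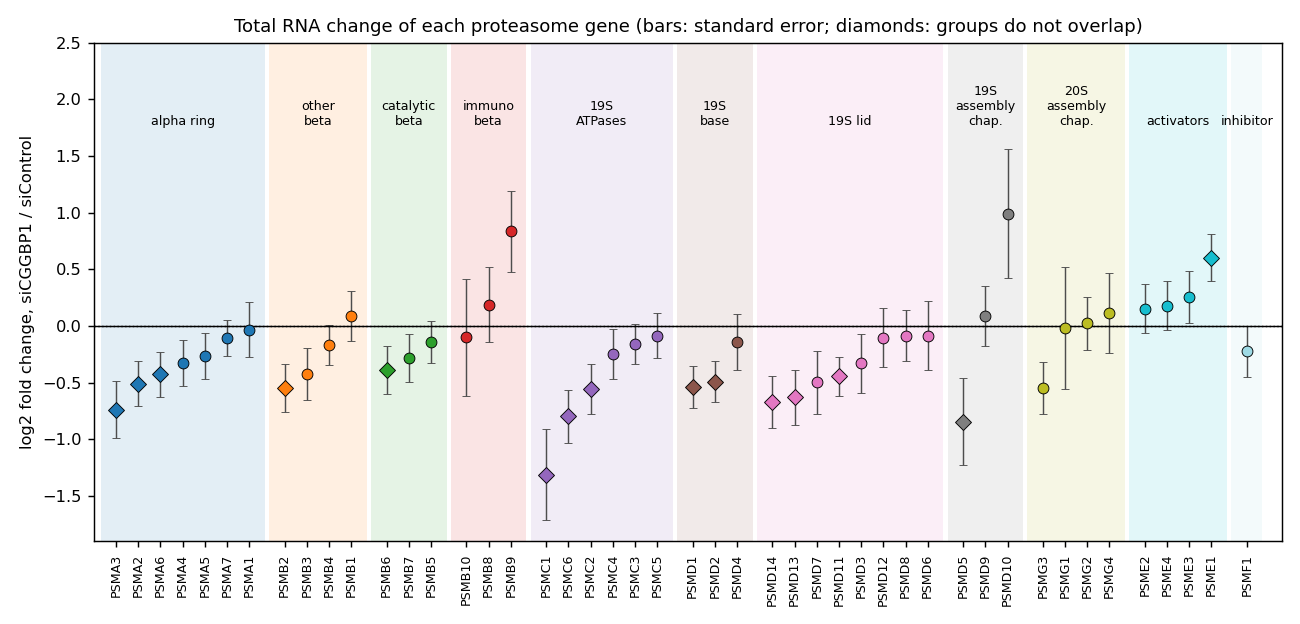
Log2 fold change of total RNA (y axis, siCGGBP1 over siControl) for each of the 46 proteasome genes, grouped by role along the x axis; bars are standard errors and diamonds mark genes whose 3 libraries per group do not overlap. The 17 genes of the 19S ATPases, base and lid lie below 0 and the 4 activators above it, and the dotted line, the median of all tested genes, coincides with 0.

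The promoters of 40 of the 46 genes were found in the RefSeq table (GRCh38.p14), each as 250 bases before and 50 after the start of transcription. A gene with several starts was counted once, as holding a motif if any of its promoters did. The letters CGGCGGCGG, the repeat that gives CGGBP1 its name, stood on either strand in 2 of 40 member genes (5%). The share was 7.46% over all 27305 genes in that table, tested here or not. These were PSMA1, of the alpha ring, and PSMD11, of the 19S lid. The promoters are shown 5′ to 3′ on the strand of the gene with the repeat in capitals, PSMA1 at chr11:14520337-14520636 on the minus strand and PSMD11 at chr17:32444260-32444559 on the plus strand.

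PSMA1: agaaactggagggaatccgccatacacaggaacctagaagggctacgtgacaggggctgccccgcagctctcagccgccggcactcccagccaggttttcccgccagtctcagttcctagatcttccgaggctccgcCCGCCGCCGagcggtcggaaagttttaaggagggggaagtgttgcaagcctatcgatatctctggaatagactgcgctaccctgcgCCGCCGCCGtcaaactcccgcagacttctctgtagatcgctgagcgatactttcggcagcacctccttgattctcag
PSMD11: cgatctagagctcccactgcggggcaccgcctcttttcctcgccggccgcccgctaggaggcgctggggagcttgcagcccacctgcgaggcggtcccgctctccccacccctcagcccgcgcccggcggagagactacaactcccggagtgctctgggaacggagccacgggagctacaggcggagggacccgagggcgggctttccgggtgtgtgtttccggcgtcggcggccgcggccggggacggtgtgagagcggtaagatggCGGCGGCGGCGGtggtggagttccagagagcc

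In PSMA1 the repeat stood in 2 places, both on the opposite strand, at -113 to -105 and -27 to -19 from the start. In PSMD11 a run of 4 CGG units, which holds 2 overlapping matches, stood from 19 to 30 bases past the start. The total RNA of PSMA1 barely differed between groups (log2 fold change -0.03 ± 0.25, SE), and that of PSMD11 differed by -0.45 ± 0.17 (SE). The antioxidant response element core TGANNNNGC stood in the promoters of 26 of 40 member genes (65%), beside 47.1% of all genes in that table. It was found in 10 of 13 matched genes of the core, 9 of 16 of the 19S particle, 3 of 4 of the activators and 4 of 6 of the chaperones. A match of letters is a description and does not mark a bound site. As examples with opposite changes, the promoters of PSMA3 (chr14:58244593-58244892, plus strand) and PSME1 (chr14:24135944-24136243, plus strand) are shown with the core in capitals.

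PSMA3: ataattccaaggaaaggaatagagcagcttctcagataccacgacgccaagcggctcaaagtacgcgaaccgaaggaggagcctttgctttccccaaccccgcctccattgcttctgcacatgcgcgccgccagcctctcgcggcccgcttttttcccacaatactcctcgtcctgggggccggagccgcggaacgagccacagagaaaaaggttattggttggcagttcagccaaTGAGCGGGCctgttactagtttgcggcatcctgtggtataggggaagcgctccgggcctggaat
PSME1: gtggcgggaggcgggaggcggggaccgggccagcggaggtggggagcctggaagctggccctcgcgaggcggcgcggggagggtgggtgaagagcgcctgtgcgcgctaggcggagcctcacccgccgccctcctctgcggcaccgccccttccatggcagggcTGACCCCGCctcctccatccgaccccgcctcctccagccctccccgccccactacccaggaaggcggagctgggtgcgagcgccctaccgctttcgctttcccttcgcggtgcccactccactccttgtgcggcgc

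The core ended 6 bases before the start in PSMA3 and 78 bases before it in PSME1. PSMC6 and PSMC1, the members with the lowest unadjusted p, held neither motif in this window.

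The 19S regulatory particle had the most negative median of the subcomplexes. Its summed level was 4183, 4286 and 4217 normalized RPM in siControl and 3120, 3466 and 3180 in siCGGBP1, with no overlap. The ATPases, the base and the lid each had non-overlapping sums as well. For the base they ran from 1232 to 1394 in siControl and from 922 to 1030 in siCGGBP1, and for the lid from 1559 to 1588 against 1213 to 1274. The ATPases were closer, at 1228 to 1427 against 955 to 1162. In 8 of 17 genes (47.1%) every depleted library lay below every control, beside 12.1% of all tested genes, and 8 of 17 were lower at an unadjusted p under 0.05, beside 8.32%.

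**Figure D2:**
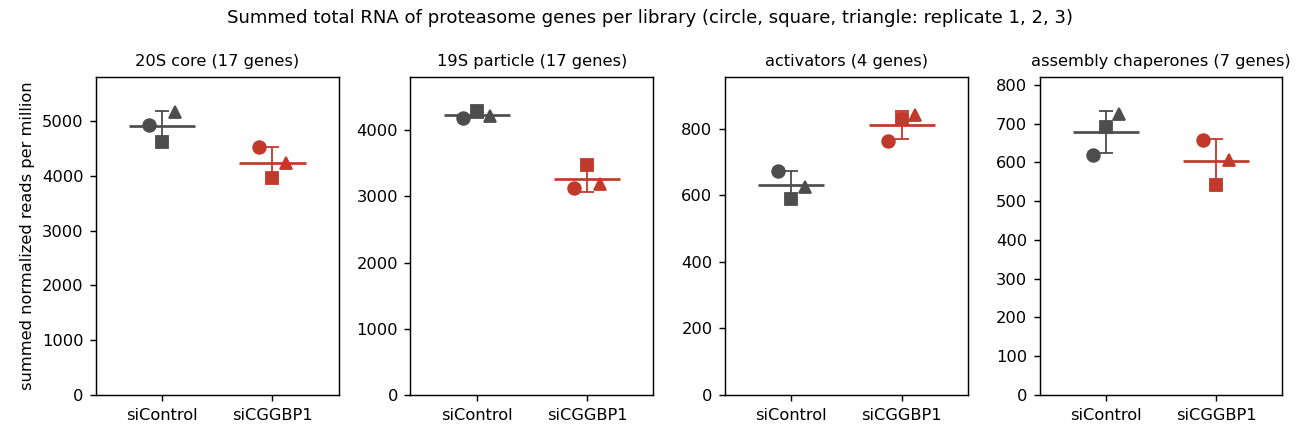
Summed normalized RPM (y axis, from 0) of the genes of 4 subcomplexes in siControl (grey) and siCGGBP1 (red); symbols are libraries, lines means and bars SD (n = 3). The 19S sums of siCGGBP1 (3120 to 3466) lie below all siControl sums (4183 to 4286), and the activator sums (764 to 842) lie above them (590 to 675). Taken singly, only PSME1 of the activators is apart between groups.

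Among the ATPases, PSMC6 had 134, 127 and 144 normalized RPM in siControl and 81.6, 91.6 and 60.0 in siCGGBP1. Every depleted library was lower, by a log2 fold change of -0.80 ± 0.24 (SE), an effect that missed the adjusted threshold in edgeR (adjusted p = 0.110) and passed it in DESeq2 (adjusted p = 0.0283). PSMC1, which is named here after its values were seen, went from 131, 103 and 135 to 51.7, 78.1 and 18.6, a log2 fold change of -1.31 ± 0.40 (SE, adjusted p = 0.121 in edgeR and 0.0219 in DESeq2). Its count was fractional in all 8 libraries, since a read that matches several genes was divided among them, so reads shared with near-identical copies make its level uncertain. Fractional counts were not particular to PSMC1, since 44 of the 49 rows had one in some library. The remaining ATPases, PSMC2, PSMC3, PSMC4 and PSMC5, had log2 fold changes from -0.56 to -0.08.

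PSMD1, a large scaffold subunit of the base, stood at 628, 499 and 578 normalized RPM in siControl against 386, 328 and 458 in siCGGBP1. No depleted library reached the lowest control, and the log2 fold change was -0.54 ± 0.18 (SE, adjusted p = 0.159 in edgeR and 0.0405 in DESeq2). PSMD2, the other scaffold of the base, had a log2 fold change of -0.49 ± 0.18 (SE), and the ubiquitin receptor PSMD4 one of -0.15 ± 0.25 (SE).

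In the lid, PSMD14, the deubiquitinating subunit, had 197, 156 and 217 normalized RPM in siControl and 149, 101 and 108 in siCGGBP1. The highest depleted library lay just under the lowest control, with a log2 fold change of -0.67 ± 0.23 (SE, adjusted p = 0.162). PSMD7, the partner of PSMD14 in the lid, was at 276, 194 and 119 in siControl and at 158, 133 and 125 in siCGGBP1. These groups overlapped, because siControl replicate 3 was lower than every depleted library (log2 fold change -0.50 ± 0.28, SE, adjusted p = 0.402). The estimate was -0.17 without siControl replicate 1 and -0.76 without siControl replicate 3. The other lid genes had log2 fold changes between -0.63 (PSMD13) and -0.09, and PSMD11 and PSMD13 did not overlap between groups.

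**Figure D3:**
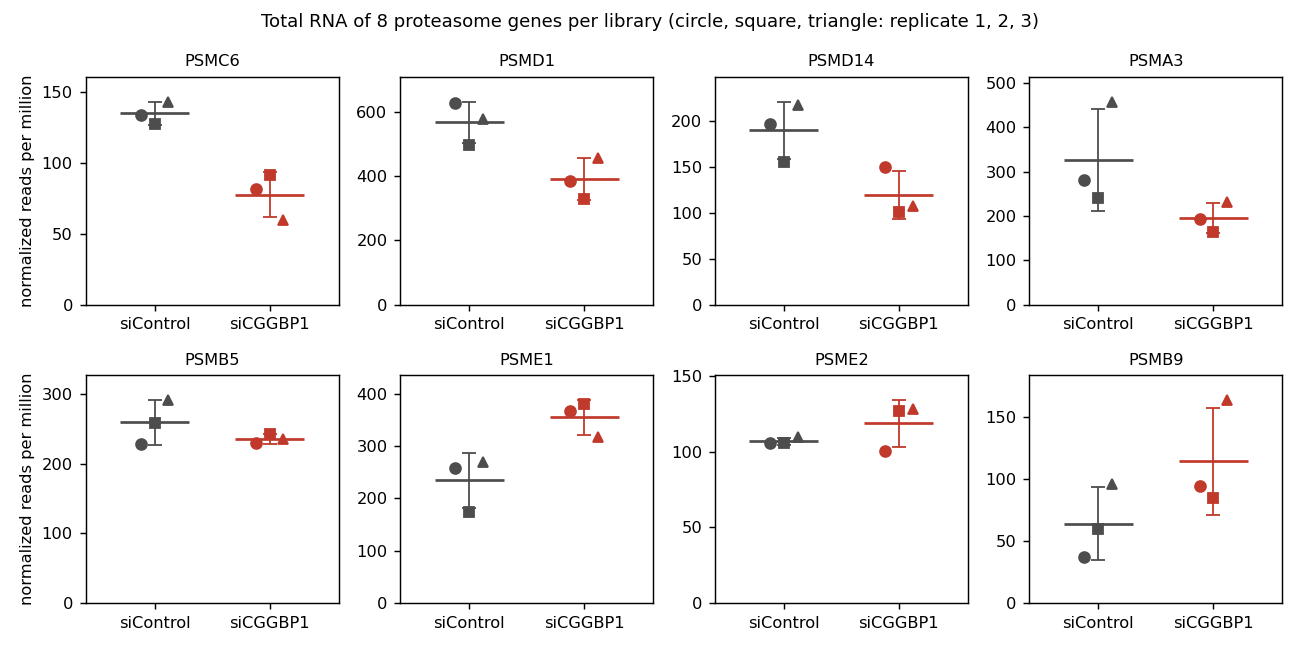
Normalized RPM (y axes, from 0) of 8 proteasome genes in each library of siControl (grey) and siCGGBP1 (red), with means and SD (n = 3). PSMC6, PSMD1, PSMD14 and PSMA3 are lower in all 3 depleted libraries and PSME1 is higher in all 3, while PSMB5, PSME2 and PSMB9 overlap between groups.

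The constitutive core differed less between groups. Its 14 genes summed to 4793, 4423 and 4974 normalized RPM in siControl and 4297, 3702 and 4022 in siCGGBP1. The depleted sums all lay under the controls, the nearest pair being 4423 and 4297. All 7 alpha genes were lower, with log2 fold changes from -0.74 to -0.03. PSMA3 was at 280, 241 and 458 in siControl and 192, 164 and 230 in siCGGBP1. Its highest value, in siControl replicate 3, was far above the others, and the log2 fold change was -0.74 ± 0.25 (SE, adjusted p = 0.159 in edgeR and 0.0445 in DESeq2). With 1 library left out it ran from -0.92 to -0.41.

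Of the beta subunits without a catalytic site, PSMB2 had 214, 196 and 303 normalized RPM in siControl against 166, 172 and 150 in siCGGBP1. The groups were apart, with a log2 fold change of -0.55 ± 0.21 (SE, adjusted p = 0.221). It was -0.33 without siControl replicate 3 and -0.27 without both libraries numbered 3. PSMB1 was the only gene of the constitutive core with a positive estimate, at 698, 692 and 762 in siControl and 968, 486 and 834 in siCGGBP1. The depleted libraries lay on both sides of the controls (log2 fold change 0.09 ± 0.22, SE), and the estimate was -0.12 without siCGGBP1 replicate 1.

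The constitutive catalytic subunits were lower by small amounts. PSMB6, the caspase-like site, had 139, 150 and 168 normalized RPM in siControl and 108, 108 and 133 in siCGGBP1. All depleted libraries were under the controls, and the log2 fold change was -0.39 ± 0.21 (SE, adjusted p = 0.385). PSMB7, the trypsin-like site, was at 203, 282 and 195 against 172, 211 and 174, which overlapped (log2 fold change -0.29 ± 0.21, SE, adjusted p = 0.552). PSMB5, the chymotrypsin-like site and the target of bortezomib, was at 228, 259 and 291 against 229, 242 and 235. Its siCGGBP1 libraries fell inside the range of the controls (log2 fold change -0.14 ± 0.18, SE, adjusted p = 0.770).

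The inducible catalytic subunits had no common direction. PSMB9 had 37.1, 59.1 and 95.5 normalized RPM in siControl and 93.7, 84.7 and 163 in siCGGBP1. Only siControl replicate 3 reached the depleted range, and the log2 fold change was 0.83 ± 0.36 (SE, unadjusted p = 0.0364 in edgeR's fit across all genes, adjusted p = 0.268). Each siCGGBP1 library was above the siControl library of the same number, and the estimate was 0.48 without siCGGBP1 replicate 3, 0.56 without siControl replicate 1 and 1.24 without siControl replicate 3. PSMB8 was at 69.2, 79.3 and 65.6 against 101, 102 and 40.9, higher in replicates 1 and 2 and lower in replicate 3 (log2 fold change 0.19 ± 0.33, SE, adjusted p = 0.838). PSMB10 was at 42.1, 63.3 and 34.3 against 44.4, 74.3 and 11.7, again with a low siCGGBP1 replicate 3 (log2 fold change -0.10 ± 0.51, SE, adjusted p = 0.95). The estimate of PSMB10 was 0.36 without that library, and that of PSMB8 was -0.02 without siCGGBP1 replicate 2. PSMB8 and PSMB9 lie on opposite strands of chromosome 6 and overlap by 544 bases in the GENCODE annotation. That overlap is at the 5′ ends of both genes, while these libraries start from the 3′ end. PSMB8-AS1 lies antisense to PSMB8 and overlaps PSMB9 on the same strand, where strand alone could not separate their reads. Whether counting used the strand is not given in the sources used here, so reads of these neighbours may not be fully separated.

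The activators, which can dock where the 19S particle does, had estimates above 0. Their sum was 675, 590 and 625 normalized RPM in siControl and 764, 829 and 842 in siCGGBP1, without overlap. Taken singly, only PSME1 was apart between groups, while PSME2, PSME3 and PSME4 each overlapped. The sum therefore does not show a rise shared by all activators. PSME1, a subunit of the PA28 activator ring that is induced by interferon, had 259, 174 and 270 in siControl and 367, 381 and 317 in siCGGBP1. Each depleted library exceeded each control, and the log2 fold change was 0.60 ± 0.21 (SE, adjusted p = 0.167 in edgeR and 0.066 in DESeq2). PSME2, its partner in the ring, was at 106, 106 and 110 against 101, 127 and 128, with 1 depleted library below the controls (log2 fold change 0.15 ± 0.22, SE, adjusted p = 0.796). PSME1 and PSME2 lie 4394 bases apart on chromosome 14.

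PSME3, the nuclear PA28 gamma subunit, was at 206, 186 and 138 normalized RPM in siControl and 185, 184 and 263 in siCGGBP1. The single high library was siCGGBP1 replicate 3, the log2 fold change was 0.26 ± 0.23 (SE, adjusted p = 0.633), and it was -0.08 without both libraries numbered 3. PSME4, the PA200 activator, was at 105, 124 and 107 against 111, 137 and 132 (log2 fold change 0.18 ± 0.21, SE, adjusted p = 0.747). PSMF1, an inhibitor of the 20S core also called PI31, was at 145, 105 and 130 against 101, 116 and 108, which overlapped (log2 fold change -0.23 ± 0.22, SE, adjusted p = 0.674).

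The assembly chaperones, which are not part of the finished proteasome, varied without a common direction. Those of the 19S base were low in these libraries. PSMD5 was at 43.1, 29.8 and 34.7 normalized RPM in siControl against 25.3, 19.7 and 14.9 in siCGGBP1, without overlap (log2 fold change -0.85 ± 0.38, SE, adjusted p = 0.295). PSMD10, also called gankyrin, was at 14.2, 7.37 and 7.99 against 22.2, 13.1 and 23.4, higher in siCGGBP1 except that its lowest value lay under the highest control (log2 fold change 0.99 ± 0.57, SE, adjusted p = 0.420). Of the chaperones of the 20S core, PSMG3 was at 183, 294 and 279 against 143, 199 and 175, and only siControl replicate 1 fell within the depleted range (log2 fold change -0.55 ± 0.23, SE, adjusted p = 0.254). PSMG4 had a log2 fold change of 0.11 ± 0.35 (SE) and PSMG1, near 22 normalized RPM on average in both groups, one of -0.02 ± 0.54 (SE). Both changed sign in their estimate when single libraries were left out.

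Proteasome components and partners with other symbols were read from a list of 30 genes, 20 of them lower and 10 higher, with none called by edgeR. At an unadjusted p under 0.05, 2 were lower, among them TXNL1, which is named here after its values were seen, and none was higher, beside the 8.32% and 8.11% of all tested genes given above, and DESeq2 called TXNL1 alone. TXNL1, a thioredoxin-like protein bound to the 19S particle, was at 106, 80.6 and 172 normalized RPM in siControl and 60.3, 40.9 and 43.7 in siCGGBP1. It had a log2 fold change of -1.31 ± 0.31 (SE, adjusted p = 0.0552 in edgeR and 0.00293 in DESeq2). ADRM1, a ubiquitin receptor of the 19S base, was at 234, 323 and 289 against 155, 264 and 183, with 1 depleted library inside the control range (log2 fold change -0.49 ± 0.23, SE, adjusted p = 0.309). The small lid subunit SEM1 and the 20S maturation factor POMP differed by -0.07 ± 0.23 and -0.01 ± 0.19 (log2 fold change, SE). NFE2L1 itself was at 166, 153 and 138 against 119, 116 and 136, with every depleted library below the controls (log2 fold change -0.31 ± 0.20, SE, adjusted p = 0.499). Among the 7 listed regulators of proteasome genes, NFE2L1 included, 3 were lower and 4 higher.

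Newly made RNA of these genes was scarce within the labelling time. T-to-C conversions were seen at 0.110 to 0.157 per 100 covered T in the 46 genes in the libraries at 75 µM, and at 0.0515 in the library without 4sU. Over all genes the same rates were 0.183 to 0.263 and 0.0638. The conversion rate was above that of the library without 4sU in all 3 siControl libraries for 27 of 46 genes, and in none of them for 5 (PSMA5, PSMB8, PSMD2, PSMD5 and PSMF1). For those 5 the ratio in siControl at 75 µM had no raw signal above the unlabelled background. The same counts were not made over all tested genes, so they are not shown to be particular to proteasome genes.

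The median new-to-total ratio of the 46 genes was 1.27%, 1.44% and 0% in siControl and 0.97%, 0.70% and 0% in siCGGBP1. Over all tested genes the medians were 3.82%, 4.74% and 0%, and 3.37%, 2.78% and 0%. In the 4 libraries numbered 1 and 2 the proteasome median was thus the lower, and in both libraries numbered 3 the estimate was 0 for most genes (24 and 25 of the 46). By subcomplex, the core stood at 0.68%, 1.03% and 0% in siControl and 0.31%, 0.71% and 0% in siCGGBP1, and the 19S particle at 1.59%, 1.56% and 0% against 2.20%, 0% and 0%. The activators stood at 2.32%, 3.58% and 1.31% against 0%, 2.93% and 3.58%, and the assembly chaperones at 0.99%, 5.78% and 1.68% against 7.68%, 3.25% and 1.49%. In each subcomplex the libraries of a group spread over more than the groups' means differed.

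**Figure D4:**
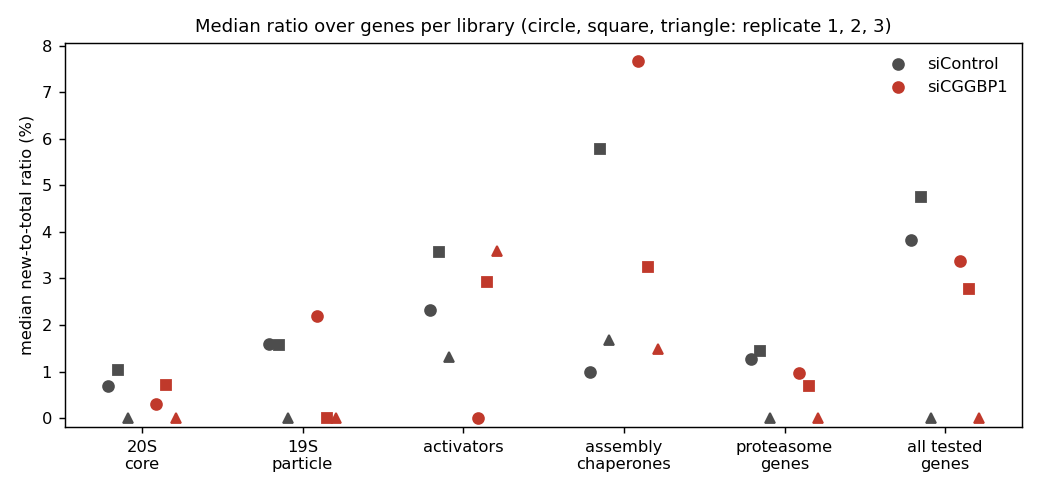
Median new-to-total ratio in percent (y axis) over the genes of each subcomplex, over all 46 proteasome genes and over all tested genes, for each library of siControl (grey) and siCGGBP1 (red). The proteasome median is at most 1.44% and lies below that of all tested genes in the libraries numbered 1 and 2, and both medians are 0% in the libraries numbered 3.

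No gene of the 46 was at 0 in all 6 libraries, 17 of 46 were at 0 in at least 3, and 11 were above 0 in all 6. These shares were not computed over all tested genes either. PSMB10 had the highest mean ratio in siControl, at 19.7%, 30.9% and 18.7%, against 10.6%, 12.9% and 100% in siCGGBP1. The value of 100% rested on 128 conversions in the library where PSMB10 had its lowest level. PSMG1 came next only through siControl replicate 3 (54.0%, from 38 conversions), being at 0% in the other 2 controls and at 0.73% or less in siCGGBP1. PSMD7 followed by its siControl mean, at 20.1%, 7.70% and 15.2% against 11.2%, 13.0% and 6.14%. Its groups overlapped.

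At the low end, PSME1 was at 0%, 0.21% and 0% in siControl and 0%, 0.04% and 0% in siCGGBP1, with upper 95% limits of 0.66% or less in every library, so new RNA of PSME1 was at or near the lower end of what could be measured in both groups. PSMB6 was at 0.33% or less in siControl and at 0%, 2.17% and 16.4% in siCGGBP1. PSMD10 was at 0.26%, 0% and 0% against 2.56%, 19.1% and 11.3%, and these groups did not overlap, on 0 to 7 conversions in siControl and 13 to 46 in siCGGBP1. Of the 46 genes, 3 had a higher ratio in every siCGGBP1 library (PSMD9, PSMD10 and PSMD11) and 2 a lower one (PSMD5 and PSMD13), while 7.18% of the 9866 genes with a ratio in every library had non-overlapping groups in either direction.

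**Figure D5:**
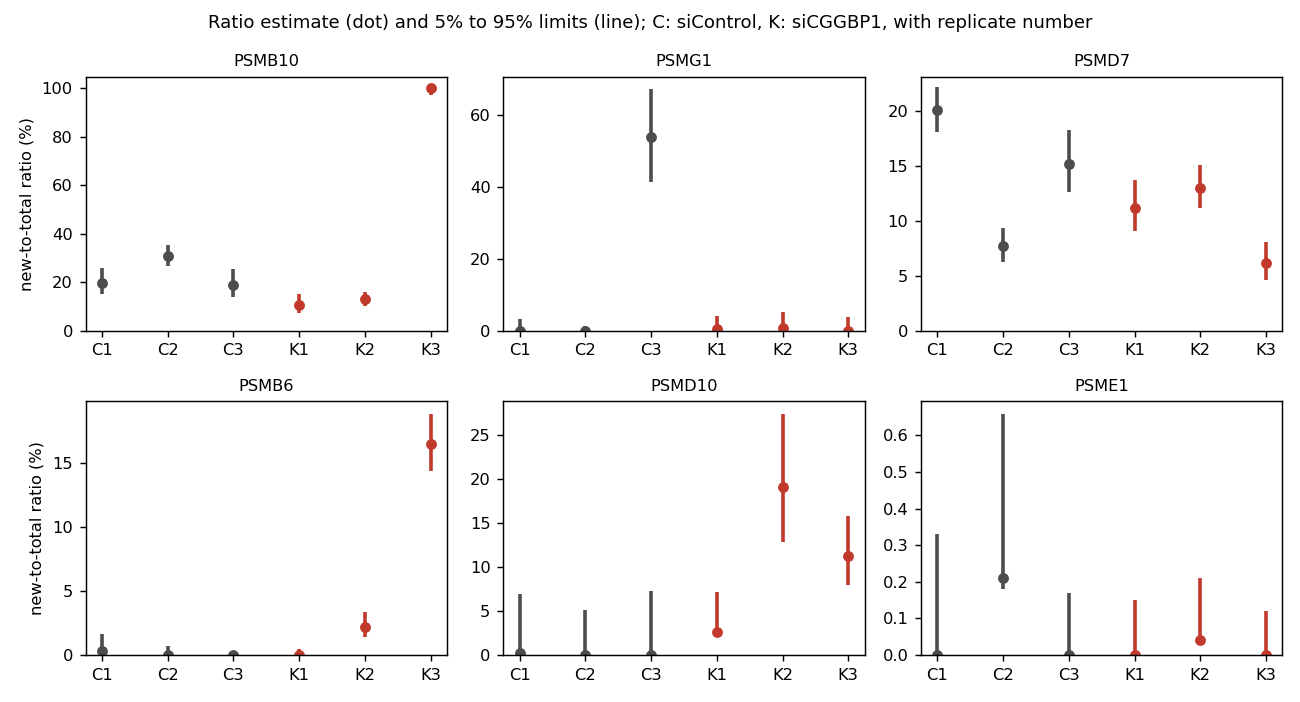
New-to-total ratio in percent (y axes, scaled per gene) of the 3 genes with the highest and the 3 with the lowest mean in siControl, with dots for the estimate and lines from the 5% to the 95% limit, in siControl (C, grey) and siCGGBP1 (K, red) replicates 1 to 3. PSMD7 is above 6% in all 6 libraries, PSME1 is at or below 0.21%, and PSMB10, PSMG1 and PSMB6 each have a single library far above the others.

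Conversions relative to covered T were tested with edgeR's quasi-likelihood test, which called 0.0302% of 9943 tested genes and no proteasome gene. At an unadjusted p under 0.05 it found 2 of 46 (PSMA2 and PSMD1), beside 5.18% of all tested genes, and the lowest adjusted p of the 46 was 0.909. With limma on the ratio itself none of the 46 was called. The log2 difference in conversion rate was 1.52 ± 0.71 (SE) for PSMA2 and 1.29 ± 0.64 (SE) for PSMD1. Their siControl rates were close to background, above the library without 4sU in 2 of 3 libraries for PSMA2 and 1 of 3 for PSMD1. For newly synthesized RNA, the product of reads and ratio, edgeR called 0.0493% of tested genes and no proteasome gene. Its lowest adjusted p was 0.993, and DESeq2 called none of the 46. At an unadjusted p under 0.05 edgeR found 5 of 46, beside 3.14% of all tested genes. PSMB2, PSMB9, PSMD13 and PSMD14 were lower and PSMB6 was higher. The ratio was at most 0.07% in siCGGBP1 for PSMB2, PSMB9 and PSMD13, and at most 0.33% in siControl for PSMB6. The estimates of all but PSMD14 thus rest on ratios at or near 0%. With the replicate number as a block, the genes called over the whole table went from 3 to 0 for conversions and from 5 to 2 for newly synthesized RNA. None of the 46 genes was thus called for a difference in labelling, which does not show that their labelling was alike.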

How the data were processed

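Total and newly synthesized RNA were measured by SLAM-Seq in 8 libraries, of which the 3 siControl and 3 siCGGBP1 libraries at 75 µM 4sU were compared. The authors removed rRNA reads with Bowtie2 2.3.0, mapped with STAR 2.5.3a to GRCh38 (versions as in the submitters' processing notes) and ran GRAND-SLAM, and deposited estimated counts of reads per gene, in which a read matching several genes is divided (44 of 49 rows had a fractional count), with conversion and covered-T counts. The deposited new-to-total ratio is a fraction with 5% and 95% limits, shown here as percent; its estimate is the most likely value and can sit at 0% or 100%, outside those limits. Counts were rounded and tested with edgeR 4.0.16 (R 4.3.3, TMM, quasi-likelihood, Benjamini-Hochberg over all tested genes) over genes that reached 100 reads in 3 or more of the 6 libraries. Conversions were tested in the same way with an offset of covered T and of the library's conversion rate. Normalized RPM are reads scaled by the TMM library sizes. DESeq2 1.42.0 and limma 3.58.1 served as alternatives. The count tests were tested on simulated data. For conversions and newly synthesized RNA the simulated spread was smaller than that of these data. Their fitted coefficients of variation between libraries were 1.09 and 1.78, so the simulation does not show how the labelling tests perform here. Gene positions are from GENCODE release 44, promoters from RefSeq.

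The members and lists were chosen with earlier results of these data known, so lists are described by counts and medians. Values are named by a rule: CGGBP1, the catalytic subunits, activators and inhibitor, the member with the lowest unadjusted p in each direction in each other group, any called member, the 3 highest and 3 lowest ratios in siControl, and ADRM1, SEM1, POMP and NFE2L1. Deviations from the group means of same-numbered libraries correlated at 0.122, 0.215 and 0.105. Those of all other pairs were negative, but centring on the group means favours this by arithmetic, so they add no evidence of pairing. The main tests, with the SE and p-values given, were unpaired. A block on the replicate number was fitted only as an alternative. An exact permutation test of 3 against 3 libraries cannot reach below p = 0.1. The values of 1 listed partner gene are not reported here.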

Additional observations from a re-analysis of the deposited data

Results flagged for a closer look

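The siControl library with 200 µM 4sU enters no comparison. Its lower 5% limit of the new-to-total ratio exceeded the upper 95% limit of all 3 siControl libraries at 75 µM for 15 of the 46 proteasome genes. In the core these were PSMA3 (35.8%), PSMB5 (12.7%), PSMB2 (8.72%), PSMA2 (4.84%), PSMB6 (4.42%) and PSMA4 (3.32%). In the 19S particle they were PSMD1 (21.0%), PSMD3 (19.4%), PSMC6 (14.0%), PSMD11 (10.3%) and PSMC4 (6.32%). The other four were the chaperones PSMD10 (44.1%) and PSMD9 (27.5%) and the activators PSME3 (27.7%) and PSME2 (8.99%). The share of all tested genes with such a separation was not computed. Going the other way, PSMC2 and PSMB8 were at 0%. Their upper limits, 0.26% and 0.64%, lay below the lower limits of all 3 siControl libraries at 75 µM. In the library with 200 µM, 23 of the 46 genes were at 0%, beside 54.5% of all tested genes, whose median was 0%. Conversions per 100 covered T over all genes were 0.218 there, inside the range of the libraries at 75 µM. That library is a single one with no replicate, and the cause was not tested.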

How the results depend on the processing

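The count of genes called in total RNA, 181, was 619 with DESeq2, 477 with no filter on low reads, 406 without both libraries numbered 3 (chosen after seeing the data) and 48 to 163 when 1 library was left out, the lowest without siCGGBP1 replicate 1. Proteasome genes called, 0, became 4 with DESeq2 and 2 with no filter (PSMC1 and PSMA3), and stayed at 0 whichever library was left out. Conversions called 3 genes, but 0 with limma on the ratio, with at least 10 conversions on average or with the replicate block, and 0 to 6 when 1 library was left out. Newly synthesized RNA called 5, but 27 with DESeq2, 2 with the replicate block, 10 without both libraries numbered 3, and 3 to 6 when 1 was left out. With libraries paired by replicate number, total RNA called 253 genes and no proteasome gene, and CGGBP1 kept its call.

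With 1 library left out, the median log2 fold change ran from -0.47 to -0.35 for the 19S particle, -0.28 to -0.19 for the core, 0.13 to 0.30 for the activators and -0.11 to 0.26 for the chaperones. Of 28 named genes, 8 changed sign in at least 1 alternative, all of them uncalled. Without both libraries numbered 3 the log2 fold change was 0.18 for PSMB10, -0.080 for PSME3, 0.0029 for PSMG1 and 0.052 for SEM1. With 1 library left out it ran from -0.14 to 0.10 for POMP, -0.12 to 0.32 for PSMB1, -0.74 to 0.36 for PSMB10, -0.015 to 0.52 for PSMB8, -0.40 to 0.33 for PSMG1, -0.10 to 0.31 for PSMG4 and -0.22 to 0.19 for SEM1. The value turned positive for POMP and SEM1 without siCGGBP1 replicate 1, for PSMB10 and PSMG1 without siCGGBP1 replicate 3 or siControl replicate 2, for POMP and PSMG1 without siControl replicate 1 and for SEM1 without siControl replicate 3. It turned negative for PSMB1 without siCGGBP1 replicate 1, for PSMB8 without siCGGBP1 replicate 2 and for PSMG4 without siControl replicate 3. Uncalled estimates that 1 library moved by over 1.5 times, beside those in the text, ran from -0.92 to -0.41 for PSMA3, -0.23 to -0.048 for PSMB5, -0.40 to -0.10 for PSMB7, 0.090 to 0.26 for PSME2, 0.070 to 0.38 for PSME3, 0.11 to 0.26 for PSME4, -0.35 to -0.12 for PSMF1 and -0.75 to -0.34 for ADRM1. The causes were not tested. The 3 libraries per group and the ratios at 0% limit what the labelling can show.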
